A study of Drosophila melanogaster with 23 samples.

Results

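The loci described here are those of orthodenticle (oc), empty spiracles (ems), buttonhead (btd), cap-n-collar (cnc) and crocodile (croc), 5 genes that pattern the Drosophila head. The rule took every deposited peak interval whose summit lay within 10 kb of one of these genes, a window that runs from 10 kb below the gene's lower end to 10 kb above its upper end. It found 1229 of 942072 intervals (0.130%) in 22 peak lists, with 285 at oc, 142 at ems, 260 at btd, 388 at cnc and 154 at croc. The genes were chosen by name and no binding value entered the rule, but earlier results of these data were known when they were chosen. Close to the edge of the rule, 74 intervals lay 9 to 10 kb from a gene and were kept, and 67 lay 10 to 11 kb away and were not.

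All libraries came from whole wild-type Oregon-R embryos 2 to 3 h after egg laying, with no transgene or treatment. ChIP-nexus is a form of ChIP-seq in which an exonuclease trims the precipitated DNA up to the crosslinked protein. It was done with 3 libraries each for Zelda (Zld), Bicoid (Bcd) and Caudal (Cad), for the ventral factors Twist (Twi) and Dorsal (Dl), and for the GAGA factor (GAF). The histone marks H3K27ac and H3K4me1 were mapped by ChIP-seq, with 2 libraries per mark. Whole embryos mix head and trunk nuclei, so an interval does not say in which cells a protein was bound, and no value here measures expression. Nothing in the labels says that the 3 libraries of a factor came from separate collections, so p-values measure only the spread between libraries, which may be technical.

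Bicoid is a homeodomain protein made from maternal RNA at the anterior pole, where its gradient switches on head and thorax genes. The classical head gap genes oc, ems and btd are among its known targets and are expressed in overlapping domains of the future head. Loss of any of them removes adjacent head segments. The gene oc encodes a homeodomain protein of the Otx family, ems a homeodomain protein of the Emx family and btd a zinc finger protein of the Sp family. The gene cnc encodes a basic leucine zipper protein that acts in the mandibular and labral regions and is also the fly relative of Nrf2, and croc encodes a forkhead protein of the FoxC family that acts in the anterior head. Caudal, another homeodomain protein, forms the opposing gradient from the posterior pole. Dorsal and Twist pattern the ventral side, and Zelda and GAF are known for keeping chromatin open in the early embryo.

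In Release 6 coordinates the genes lie at X:8630159-8650681 (oc), 3R:13901853-13904620 (ems), X:9694186-9697558 (btd), 3R:23185580-23226711 (cnc) and 3L:21474133-21476479 (croc). The windows were 40.5 kb for oc, 22.8 kb for ems, 23.4 kb for btd, 61.1 kb for cnc and 22.4 kb for croc, against a median of 22.2 kb over 13922 protein-coding genes. No other annotated gene reached into the windows of oc and ems. That of btd held the end of nej, which encodes the histone acetyltransferase CBP, and 2 long noncoding RNA genes. The cnc window held parts of Irk1, CG46310 and CG4467 and all of fzo, which lies inside cnc, and the croc window held part of Neu2. The gene table gives no strand and no exons, so positions are stated relative to the lower and upper ends of a gene, and whether a site is exonic or intronic was not analysed here.

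The lists of the 18 ChIP-nexus libraries held between 30281 and 60625 intervals and those of the 4 mark libraries between 6546 and 14975. GAF had the shortest lists of the 6 factors, with 30281 to 34602 intervals. The lists hold no read counts, so depth is unknown and no counting interval can be given. To set lists side by side, intervals on the 6 main chromosome arms were ranked within each library by the authors' −log10 p, with rank 1 the strongest. The value of a locus in a library was the rank of its best interval. Ranks compare a locus with the rest of the same library and are not amounts of bound protein.

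Bcd had its strongest rank of the 6 factors at 4 of the 5 genes. The exception was croc, where Dl and then Twi ranked strongest. The best Bcd interval at oc ranked 43, 36 and 39 in the 3 libraries, at ems 59, 58 and 55, at btd 42, 37 and 42, and at cnc 87, 106 and 95. At croc it ranked 501, 445 and 501. Over all 13921 genes with an interval among the 20000 strongest of any library, the median Bcd rank was 3466, and 0.611% of genes had a stronger mean Bcd rank than oc, 0.632% than btd, 0.884% than ems, 1.51% than cnc and 8.69% than croc. These shares were not adjusted for window length. A longer window can hold more intervals, and those of oc (40.5 kb) and cnc (61.1 kb) exceed the median of 22.2 kb. Bcd was the strongest factor at 17.1% of all genes.

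**Figure D1:**
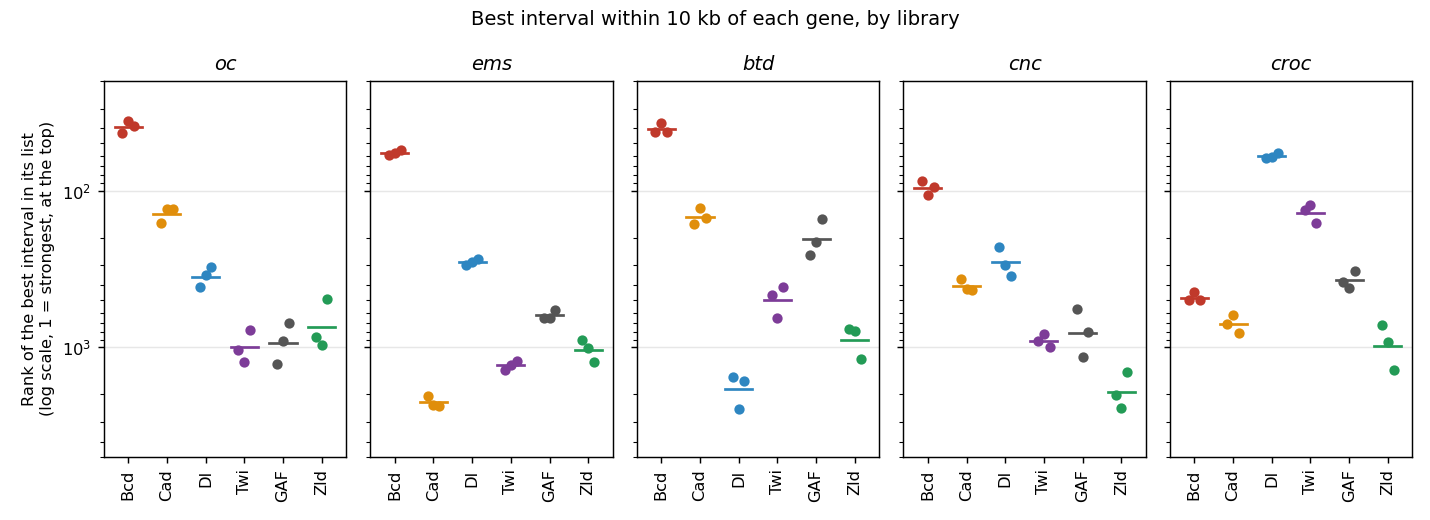
Rank of the best interval within 10 kb of each gene in each of the 18 ChIP-nexus libraries (y axis, log scale, strongest at the top), with points for the 3 libraries of a factor and a bar at their geometric mean. The 3 Bcd points sit above all others at oc, ems, btd and cnc, and the 3 Dl points (58 to 62) do so at croc.

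The other patterning factors differed from gene to gene. Cad, whose gradient is highest at the opposite pole, was the runner-up at oc with ranks of 162, 132 and 131, and at btd with 163, 130 and 150. At cnc it ranked 365, 423 and 428, and at ems it was the weakest of the 6 factors, with 2040, 2343 and 2366. At each of these genes the Bcd and Cad ranks did not overlap.

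Dl ranked 62, 61 and 58 at croc and 298, 285 and 274 at ems, where it was next to Bcd. At btd it was the weakest factor, with 1547, 2462 and 1639. Its ranks at oc (412, 347 and 309) and cnc (228, 298 and 349) lay between these. Twi ranked 133, 123 and 161 at croc, where only Dl was stronger, and no library of another factor reached into the range of either. At the remaining genes the Twi ranks ran from 413 to 1392.

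GAF ranked strongest at btd, with 259, 214 and 151, a range that overlapped that of Cad there. It had 385, 419 and 324 at croc and 651, 651 and 577 at ems, and ran from 570 to 1279 at oc and cnc. Zld had no rank below 495 at any of the 5 genes. Its ranks were 860, 964 and 495 at oc, 898, 1007 and 1246 at ems, 768, 790 and 1194 at btd, 2026, 2433 and 1444 at cnc and 725, 929 and 1399 at croc. They were still stronger than the median gene, at 2795, but between 17.3% (oc) and 38.8% (cnc) of all genes had a stronger Zld rank. This comparison too was not adjusted for window length. In the order at oc, Zld, GAF and Twi overlapped each other, as did Zld and Twi at ems, GAF and Twi at cnc, and Cad and Zld at croc.

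These differences were tested with limma on log2 ranks, fitted to all 13921 genes and all 18 libraries, with each factor set against the mean of the other 5. A gene was called when the Benjamini-Hochberg adjusted p over all genes was below 0.05 and the rank differed at least 2-fold. A negative difference means a stronger rank for the factor named. Such calls were common, since the factors differ at many genes, and the share of all genes called is the background for each count. For Bcd, 4 of the 5 loci were called with a stronger rank, against 21.1% of all genes, and none with a weaker one, against 22.5%. The difference in log2 rank was −3.95 ± 0.15 (SE, n = 3 Bcd libraries against 15) at ems, a 15.4-fold stronger rank (limma adjusted p = 1.86e-16). It was −3.70 ± 0.20 at oc (limma adjusted p = 1.59e-13), −3.57 ± 0.20 at btd (limma adjusted p = 1.5e-13) and −2.86 ± 0.20 at cnc (limma adjusted p = 6.63e-12). At croc it was 0.72 ± 0.18 and below the 2-fold limit. Of all genes, 1.62% had a lower Bcd difference than ems and 4.58% a lower one than cnc. All 4 calls held in an exact two-sided permutation test of the 18 libraries (adjusted p = 0.011 for each, with a smallest unadjusted p of 1 in 816 splits).

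At ems the Bcd result rested on an interval more than 5 kb from the gene. With windows of 5 kb the difference there was 0.23 and of opposite sign, while oc, btd and cnc kept their calls. Windows of 20 kb lowered the size of the difference at oc to −2.08, still called. Ranking intervals by the authors' fold enrichment in place of −log10 p reduced the differences at btd to −1.62 and at cnc to −1.54, and all 4 loci were still called. At croc that ranking gave 1.78, a call of a weaker Bcd rank.

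Set directly against Cad, Bcd ranked stronger at oc, ems, btd and cnc and these 4 were called, against 24.5% of all genes. The largest of these was at ems, where the Bcd rank was 39.2-fold stronger (log2 difference −5.29 ± 0.19, limma adjusted p = 1.95e-16). The differences were −2.08 ± 0.25 at cnc, −1.87 ± 0.25 at btd and −1.85 ± 0.26 at oc. The call at btd was lost when intervals were ranked by fold, where the difference was 0.71 with the opposite sign, and so was that at cnc (−0.12). That at ems was lost with windows of 5 kb (−0.63).

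Cad itself was called stronger at oc (−1.49 ± 0.20) and btd (−1.32 ± 0.20), against 18.4% of all genes, and weaker at ems (2.40 ± 0.15) and croc (1.39 ± 0.18), against 22.5%. Dl was called stronger at croc (−2.88 ± 0.18, limma adjusted p = 2.03e-12) and ems (−1.17 ± 0.15), against 14.9%, and weaker at btd (3.05 ± 0.20), against 17.9%. Of all genes, 99.9% had a lower Dl difference than btd. Twi was called stronger at croc (−1.45 ± 0.18), against 21.6%, and weaker at oc, ems and cnc (1.04 to 1.90), against 23.1%. GAF was called at oc only, with a weaker rank (1.79 ± 0.20), against 35.2%. Zld was called weaker at all 5 loci, with differences from 1.07 ± 0.15 at ems to 2.33 ± 0.20 at cnc, against 15% of all genes. Ranking by fold ended the calls of Cad at oc (−0.99) and croc (0.07), Twi at croc (0.31, opposite in sign) and Zld at ems (0.89) and oc (−0.46, opposite in sign). It also gave calls of a stronger rank at cnc for Cad (−1.39) and Dl (−1.67). For GAF it gave calls of a weaker rank at cnc (1.12) and btd (1.51, opposite in sign). Windows of 20 kb ended those of Cad at oc (−0.09) and croc (0.48), and brought in farther intervals at oc that gave stronger ranks for Dl (−2.86) and Zld (−1.84). With windows of 5 kb the ems calls of Cad (0.98), Dl (0.33), Twi (0.04) and Zld (−0.35) ended. The same windows gave calls of a stronger GAF rank at ems (−1.23) and btd (−1.23) and of a weaker Twi rank at btd (3.00). In the exact permutation test, the calls of Dl at croc and btd and of Zld at cnc held, and the other 14 calls of these 5 factors did not pass.

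Each difference is taken from the mean of the other factors, so a very strong factor at a locus makes the remaining ones weaker by construction.

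**Figure D2:**
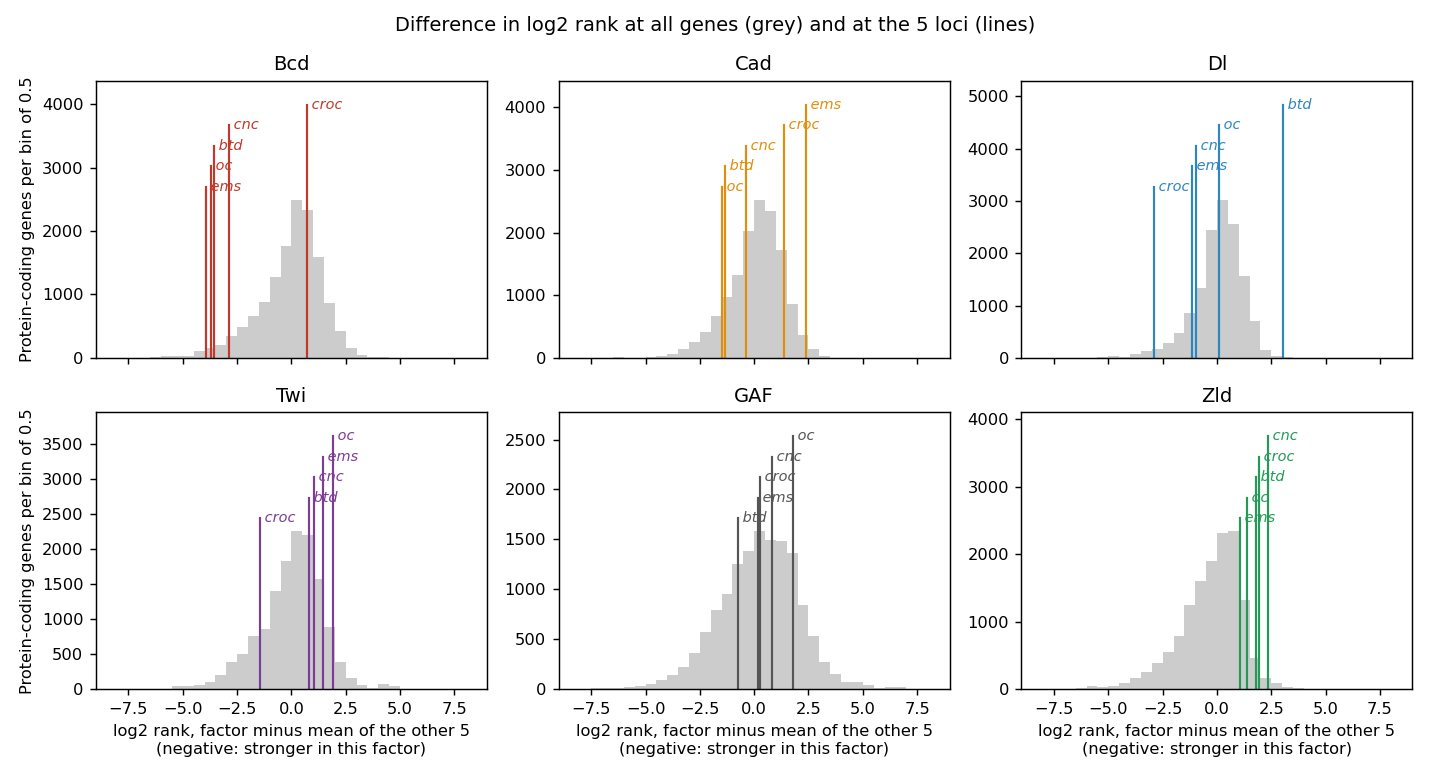
Number of protein-coding genes (y axis) by the difference in log2 rank between a factor and the mean of the other 5 (x axis, bins of 0.5, negative for a stronger rank), with the 5 loci as lines. The Bcd lines of ems, oc, btd and cnc lie between −3.95 and −2.86 in the left tail, and the Zld lines all lie to the right of 1.

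Other genes that pattern the head or anterior of the embryo were set beside the 5. Of 20 such genes, 16 were called with a stronger Bcd rank and none with a weaker one, against 21.1% and 22.5% of all genes. Their median Bcd rank was 147, against 3466 over all genes, and Bcd was the strongest factor at 15 of the 20. Cad was called stronger at 6 and weaker at 5 of the 20, against 18.4% and 22.5% of all genes. Dl was called at 3 and 10 (14.9% and 17.9% of all genes), Twi at 4 and 13 (21.6% and 23.1%), GAF at 2 and 11 (23.7% and 35.2%) and Zld at 3 and 5 (26.3% and 15%). The strongest mean Bcd ranks in the list were 5.81 at hb, which encodes the gap protein Hunchback and had ranks of 4, 7 and 7, and 12.3 at tll, a terminal gap gene encoding a nuclear receptor. The strongest mean Zld ranks were 98.9 at hkb, a terminal gap gene encoding a zinc finger protein, and 198 at hbn, a homeobox gene. So the 5 loci have weaker Bcd ranks than hb and tll, and weaker Zld ranks than hkb and hbn, which were picked as the strongest of the list. Against the list's median Bcd rank of 147, the mean ranks of oc (39.2), btd (40.3), ems (57.3) and cnc (95.7) were stronger. That of croc (482) was weaker. The mean Zld ranks of all 5 loci, from 743 at oc to 1924 at cnc, were weaker than the list's median of 561. The list included relatives that neighbour a member on its chromosome, E5 next to ems and Sp1 next to btd. They entered the list for this reason and were named here after their values were seen. E5 had Bcd ranks of 26, 24 and 25 and Sp1 had 369, 450 and 365.

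The loci were also taken apart into sites. A site is a stretch of merged intervals from the 5000 strongest of each ChIP-nexus library, and an interval belongs to the site that holds its summit. There were 18157 sites on the arms and 50 in the 5 windows, namely 10 at oc, 5 at ems, 13 at btd, 15 at cnc and 7 at croc. Their median width was 568 bp, against 562 bp for all sites. GAF had the strongest mean rank at 16 of the 50, against 24.9% of all sites, and Zld at 3, against 13.5%. The counts of 9 for Bcd, 9 for Twi, 8 for Cad and 5 for Dl were near their shares of all sites, at 16.9%, 17.2%, 16% and 11.5%. Because every site had to be among the 5000 strongest of at least 1 library, a site found through a single factor had to differ, and differences at sites are given as a description. In the same fit on all sites, 12 of the 50 were called with a stronger Bcd rank and 15 with a weaker one, against 20.1% and 16.6% of all sites. These counts were 12 and 16 for Cad (20% and 15.4% of all sites), 10 and 12 for Dl (15.5% and 10.4%), and 13 and 18 for Twi (21.2% and 18.8%). They were 19 and 16 for GAF (26.6% and 30.2%), 7 and 4 for Zld (17.4% and 7.65%), and 14 and 12 for Bcd against Cad (20.7% and 21.4%).

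The strongest site of each gene lay away from the ends of that gene. At oc it was X:8643102-8643899, inside the gene, where Bcd ranked 43, 36 and 39 with fold enrichments from 21.4 to 24.6. The 3 Bcd summits fell within 3 bp of each other. Zld (mean rank 2814), Dl (4825) and Cad (11320) also had a summit there in all 3 libraries, the median Zld summit 135 bp from that of Bcd, whereas Twi and GAF had a summit in none.

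A group of 3 neighbouring sites lay between 3 and 5 kb above the upper end of oc. In X:8653634-8654307 Cad ranked strongest, with 162, 132 and 131, and Bcd had a mean rank of 259. In X:8654374-8655015 Bcd had a mean rank of 95.1, Dl 503 and Zld 743. In X:8655099-8655565 Dl had a mean rank of 354, Bcd 471 and Cad 525, with the median summits of these 3 factors within 47 bp of each other. Bcd, Cad, Dl, Twi and Zld had a summit in all 3 libraries at each of these sites, and GAF had none at any of them. Such an absence of GAF is common, since it had a summit in no library at 37.55% of all sites. The GAF site nearest to them on the upper side, X:8657056-8657468, had summits in the 3 GAF libraries and in no other.

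At ems the strongest site was 3R:13910859-13911941, with a midpoint 6780 bp above the gene. Bcd ranked 59, 58 and 55 there and Dl 298, 285 and 274, with median summits 91 bp apart. All 6 factors had a summit in all 3 libraries, but Cad (mean rank 8442) and GAF (12070) were far weaker. Below the gene, 3R:13894674-13895373 had a mean Bcd rank of 831 and no Cad or GAF summit. The Cad value of ems came from 3R:13898594-13899095, where no Bcd, Twi, GAF or Zld library had a summit.

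At btd the strongest Bcd and Cad sites were separate and adjacent. Bcd ranked 42, 37 and 42 in X:9691050-9691644, where its summits fell within 4 bp, the median Zld summit lay 1 bp from that of Bcd, and Cad had a summit in 2 of 3 libraries. Cad ranked 163, 130 and 150 in X:9690142-9690937, where Bcd had a mean rank of 260 and the median summits of the 2 factors were 279 bp apart. GAF had no summit in either. A cluster of 5 sites at the edge of the window, from X:9684119 to X:9687287, overlapped nej. It held the best Twi interval of the window (466, 650 and 413), in X:9685576-9686129. The Twi value of the btd locus thus came from an interval that overlaps nej. With windows of 5 kb the Twi difference at btd rose from 0.80 to 3.00.

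At cnc the strongest factors had separate sites inside the gene. Bcd ranked 87, 106 and 95 and Cad 365, 423 and 428 in 3R:23195422-23196188, with median summits 80 bp apart and no GAF summit in 2 of 3 libraries. Dl ranked 228, 298 and 349 and Twi 912, 825 and 1001 in 3R:23193020-23193919. That site also held the best Zld interval of the locus, with a median summit 12 bp from that of Dl. Farther up the gene, 3R:23211074-23211949 and 3R:23214618-23215243 were among the 5000 strongest in all 3 libraries of both Bcd and Dl and in none of Cad and Twi. The sites around 20 kb into the gene had Twi as their strongest factor, and GAF was the strongest at 7 of the 15 cnc sites.

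At croc a single wide site, 3L:21479505-21481339, was among the 5000 strongest in all 18 libraries, which held for 249 of all sites (1.37%). It held the best Dl (62, 61 and 58), Twi (133, 123 and 161), GAF (385, 419 and 324) and Bcd (501, 445 and 501) intervals of the locus. The median summits of Dl and Twi were 41 bp apart, that of Bcd was 180 bp from Dl, and that of GAF was 751 bp from Dl, so this stretch of 1835 bp holds more than a single point of binding. The best Cad interval lay on the other side of the gene, in 3L:21471310-21471760 (mean rank 710). The strongest Zld site was 3L:21483893-21484306, with ranks of 725, 929 and 4042 and no Bcd, Twi or GAF summit.

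**Figure D3:**
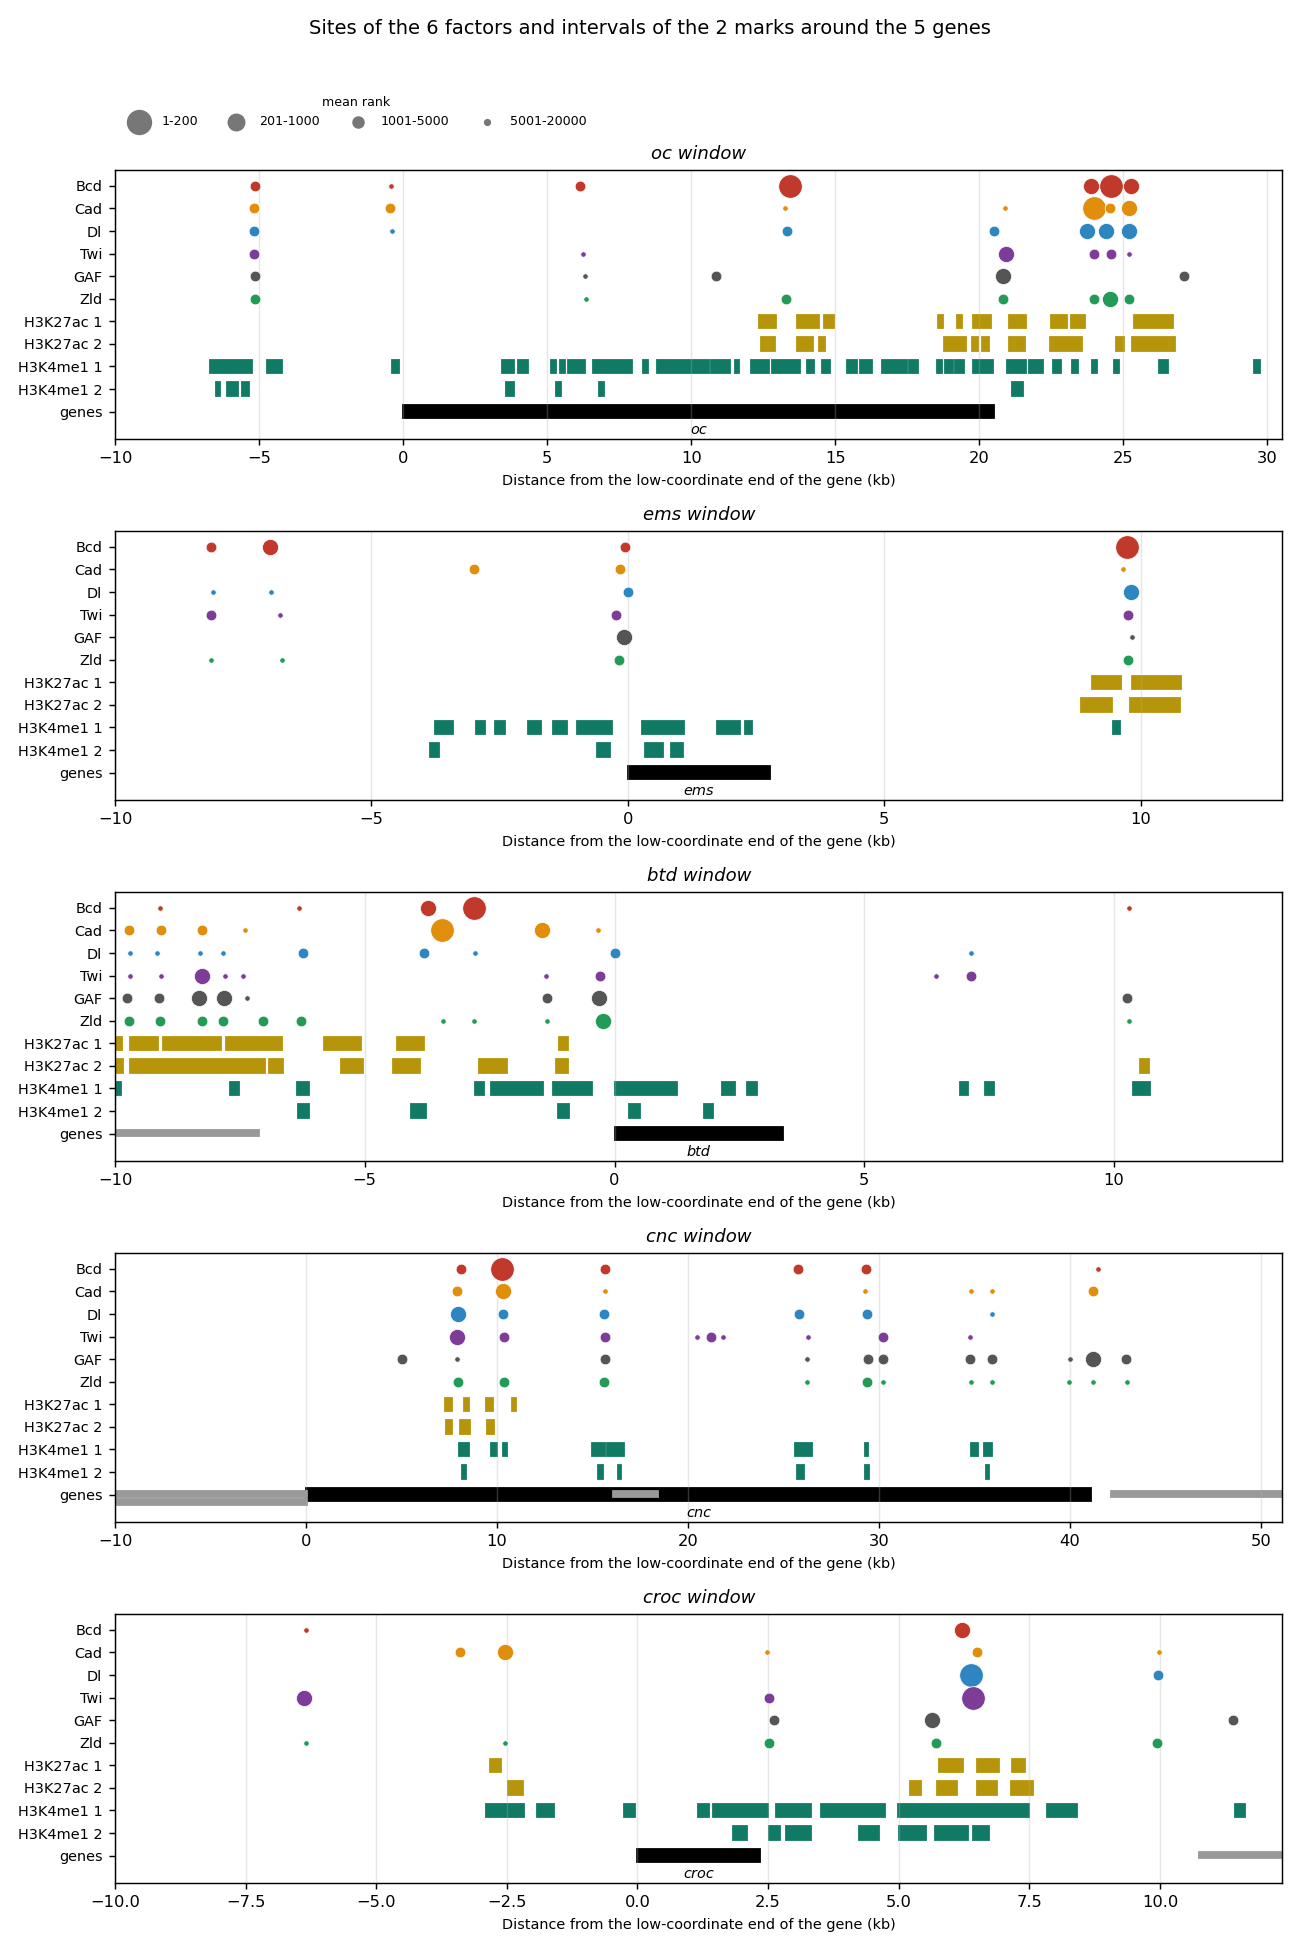
Sites and mark intervals around the 5 genes, by distance from the lower end of the gene (x axis, kb). A dot is the median summit of a factor at a site where all 3 of its libraries had a summit and the mean rank was within 20000, larger for a stronger mean rank, coloured bars are H3K27ac and H3K4me1 intervals by library, the black bar is the named gene and grey bars are other protein-coding genes. The largest Bcd dots lie 13 kb into oc and above its upper end, above ems, below btd and inside cnc, away from the gene ends.

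Within 500 bp of an end of its own gene lay 6 of the 50 sites. GAF was the strongest factor at 4 of them, against 24.9% of all sites. At the upper end of oc, X:8650481-8651252 had GAF ranks of 1279, 915 and 699, and Twi (mean rank 995) and Zld (1133) were close, while no Bcd library had a summit. At the lower end of btd, X:9693663-9694346 had GAF at 259, 214 and 151 and Zld at 768, 790 and 1194, again with no Bcd summit. At the lower end of ems, 3R:13901261-13902275 had summits of all 6 factors in all libraries, led by GAF with 651, 651 and 577. At the upper end of cnc, 3R:23226514-23227106 held the best GAF interval of the locus, with a mean rank of 806. The remaining pair was not led by GAF. At the lower end of oc, X:8629498-8629958 was led by Cad (mean rank 1499), with a weak Bcd summit in all 3 libraries and no GAF or Twi summit, and at the upper end of croc, 3L:21476431-21477152 was led by Twi (mean rank 1167), with GAF at 1455 and no Dl summit. Bcd was among the 5000 strongest in all 3 libraries at 1 of these 6 sites, GAF at 5, Twi at 4 and Zld at 4. Among the other 44 sites these counts were 15, 16, 13 and 14. This split was chosen after the values were seen, and the difference was not tested.

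By number of libraries, Bcd was among the 5000 strongest in all 3 libraries at 32.0% of the 50 sites, against 22.7% of all 18157 sites. For Cad the share was 32.0% against 22.6%, for Dl 30.0% against 18%, for Twi 34.0% against 23.5%, for GAF 42.0% against 23.5% and for Zld 36.0% against 21.8%. Counting all deposited intervals, Bcd had a summit in no library at 17 of the 50 sites (34.0%), against 18.2% of all sites, and Zld at 6 (12.0%), against 15.4%. GAF had a summit in no library at 19 of the 50 (38.0%), near its share of all sites (37.55%), which was the highest of the 6 factors. At 21 sites exactly 1 factor was among the 5000 strongest in all its libraries (42.0%, against 46.8% of all sites), and at 11 sites (22%, against 9.14% of all sites) 4 or more factors were.

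**Figure D4:**
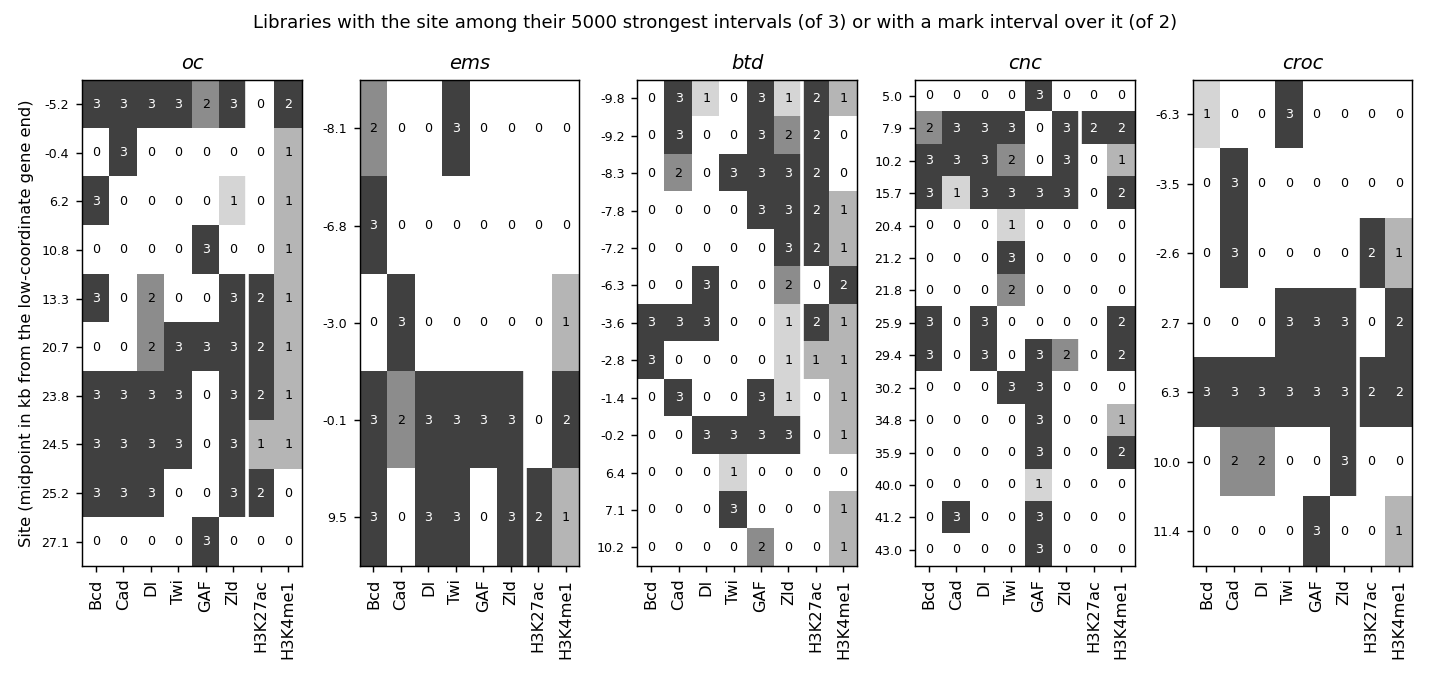
Number of libraries, for each of the 50 sites (rows, by midpoint in kb from the lower end of the gene), that hold the site among their 5000 strongest intervals (6 factors, of 3) or have a mark interval over it (2 marks, of 2). The wide croc site has 3 of 3 for every factor, and GAF is at 0 in the 3 neighbouring sites beyond the upper end of oc.

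The number of strong intervals per 10 kb also varied. For Bcd it was 1.61 at ems, 1.48 at oc, 0.856 at btd, 0.763 at cnc and 0.597 at croc, against a median gene at 0.421. These are intervals among the 5000 strongest of a library, and 97.4% of all genes had a lower density of them than ems and 96.7% than oc. The order changed over all deposited Bcd intervals. It ran from 3.99 per 10 kb at btd through 2.94 at cnc, 2.71 at oc and 2.54 at croc to 2.2 at ems. The median gene was at 3.77. Of all genes, 61.5% had a lower density than btd, 14.2% than cnc, 8.48% than oc, 5.16% than croc and 1.90% than ems. The btd window had the highest densities of the 5 for GAF (2.85) and Zld (3.00), exceeding 99.9% and 99.3% of genes, with the end of nej contributing 4 sites with GAF and 5 with Zld among the strongest of at least 1 library.

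The marks were set beside the sites. Intervals of both H3K27ac libraries overlapped 14 of the 50 sites (28.0%), against 40.1% of all sites, and covered the midpoint of 3 of 50, against 25.6%. All 3 overlap nej. H3K4me1 overlapped 10 of the 50 in both libraries, against 13.1%, and 32 in either (64.0%), against 34.2%. The 2 libraries of that mark differed greatly over their whole lists, with 13403 intervals in replicate 1 and 6546 in replicate 2. Coverage of the median gene was 2.56% in replicate 1 and 0.481% in replicate 2. H3K4me1 covered 39.5% of the oc window in replicate 1 and 4.14% in replicate 2. At croc it covered 34.5% and 12.7%, at btd 21.1% and 4.98%, at ems 15.4% and 4.46% and at cnc 7.09% and 2.2%. In replicate 1 the share at oc exceeded that of 98.7% of genes, and in replicate 2 that at croc exceeded 97.8%.

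H3K27ac covered 14.0% and 14.6% of the oc window, 18.9% and 21.7% at btd, 6.67% and 6.95% at ems, 5.97% and 7.47% at croc and 1.92% and 1.89% at cnc, against a median gene at 10.9% and 10.7%. It covered no part of the genes ems, btd and croc themselves in either library. The strongest H3K27ac interval in the btd window, of rank 540 and fold 8.75 in replicate 1 and of rank 824 in replicate 2, had its summit at nej. At the other genes no H3K27ac interval ranked above 6310 in a list of 13934 to 14722 intervals on the arms.

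None of the strongest summits of the 5 genes lay inside an H3K27ac interval. Most sites are free of the mark, since intervals of either library overlapped 44.9% of all sites. Any summit outside the intervals has a nearest one below and above, so only the distances differ. The median Bcd summit of ems lay 106 bp above an H3K27ac interval and 116 bp below the next in replicate 1, and 288 and 66 bp in replicate 2. At oc these distances were 497 and 253 bp in replicate 1 and 540 and 244 bp in replicate 2. The Dl summit of croc lay 162 and 119 bp from its neighbours in replicate 1 and 280 and 110 bp in replicate 2. At cnc the distances were 447 and 547 bp in replicate 1 and 436 and 53766 bp in replicate 2. At btd they were 1005 and 1707 bp in replicate 1 and 1069 and 107 bp in replicate 2. The intervals at up to 1707 bp were weak, with ranks from 6496 (croc, replicate 2) to 14243 (cnc, upper side, replicate 1). The lower ems interval of replicate 2 ranked 13646 in a list of 13934. At oc, ems, cnc and croc no H3K27ac interval of either library reached a −log10 q of 10. Sites with H3K27ac within 1 kb on either side, but not over the midpoint, in both libraries numbered 7 of 50 (14.0%), against 5.85% of all sites. The strongest sites of oc and croc are among these 7 and those of ems, btd and cnc are not, at ems because H3K27ac covered the site's midpoint in 1 library. This limit was chosen after the values were seen.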

How the data were processed

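The authors deposited 1 peak list per library in narrowPeak layout. The submitters' processing notes name cutadapt 2.5, Bowtie2 2.3.5.1, MACS2 2.2.7.1 and the build dm6, and give neither parameters nor controls in the text used here. Per the file columns, the deposited values are a score (10 times −log10 q), a fold enrichment (a linear ratio), the −log10 of the p-value and q-value, and a summit offset. Groups and replicate numbers came from the titles. For GAF and Zld the list names carry the numbers 1, 3 and 4, and the replicate numbers 1, 2 and 3 here follow the titles. The input (whole cell extract) was not analysed here.

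Gene positions came from a RefSeq table of Release 6, the assembly that dm6 names. Intervals on the 6 main arms (X, 4 and the arms of 2 and 3) were ranked by −log10 p (ties by fold). An interval past the 20000 strongest counted as rank 20001. The fits used limma 3.58.1 in R 4.3.3 on log2 ranks, with 7 contrasts, and were tested on simulated data. The rest used Python 3.11.15. Neighbouring genes share intervals, so genes are not independent. Deviations of same-numbered libraries correlated weakly (r over 0.1 in 2 of 45 pairs), short of the limit of 0.1 in every pair, so no block entered the fit. Named were the 5 members, and of the 20 other head genes those with the 2 strongest mean ranks of Bcd and of Zld, with E5 and Sp1 added after their values were seen. Sites named were the strongest of each factor per locus. The rule also allowed sites called in any contrast, and those named among them were picked after their values were seen. Members and lists were chosen with earlier results of these data known. Genome sequence was not used here, so motifs were not analysed.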

Additional observations from a re-analysis of the deposited data

How the results depend on the processing

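The 35 differences in log2 rank at the 5 loci (6 factors and Bcd against Cad) were recomputed in 905 combinations with other settings. Of these, 851 kept their call or stayed uncalled. A difference that was called in neither fit counts among the 851 even where its sign turned. None of the 35 gained, lost or reversed a call with the 10000 strongest intervals, with −log10 q of at least 10 or with the replicate block. Under that block the number of genes called for Bcd was 6063, as without it. With 5 kb windows the signs at ems turned for Bcd (0.23), Dl (0.33), GAF (−1.23, called) and Zld (−0.35). With 20 kb windows the signs turned at oc for Dl (−2.86, called) and Zld (−1.84, called), and at croc for Bcd against Cad (0.31). With ranking by fold the signs turned for Twi at croc (0.31), for GAF at btd (1.51, called), ems (−0.24) and croc (−0.55), and for Zld at oc (−0.46). Those of Bcd against Cad turned at btd (0.71) and croc (1.43, called). The exact permutation test dropped 14 of the calls, and Bcd against Cad could not be called there, since 20 splits allow no p below 0.1. Leaving out single libraries changed 8 calls, of Dl, Twi and GAF at cnc and of Zld at ems, all with differences near the 2-fold limit. Twi at cnc (1.04) was not called without Twi replicate 3, GAF replicate 1 or Zld replicate 3 (0.97 to 0.99), nor Zld at ems without Zld replicate 3 (0.94). Deviations of same-numbered libraries correlated with r from −0.0472 to 0.132 (mean 0.0203, against −0.0102 for other pairs), and 13 of 18 libraries correlated best with their own number.

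Genes called numbered 6063 (Bcd), 5696 (Cad), 4567 (Dl), 6215 (Twi), 8197 (GAF) and 5752 (Zld). In the exact permutation test they were 2194, 1517, 785, 2505, 5331 and 2310 in this order. With no minimum difference they came to 10135 (Bcd), 9745 (Cad), 8774 (Dl), 10214 (Twi) and 10166 (Zld). Sites called numbered 6672 (Bcd), 6415 (Cad), 4707 (Dl), 7259 (Twi), 10316 (GAF), 4554 (Zld) and 7659 (Bcd against Cad). The exact permutation test called 2878, 2597, 1203, 3135, 6518 and 1823 for the 6 factors, and with no minimum difference 14874, 14785, 13887, 15407, 16460 and 13347 were called. With the 10000 strongest intervals 2860 were called for Dl. With sites from the 2000 strongest, 4790 were called for Twi, 6366 for GAF and 4207 for Bcd against Cad. Of the 50 sites, the calls were 27 (Bcd), 28 (Cad), 22 (Dl), 31 (Twi), 35 (GAF) and 11 (Zld). The exact permutation test called 11, 8, 3, 11, 21 and 4, and with no minimum difference 44 were called for Bcd, 45 for Cad, 42 for Dl and 37 for Zld.

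The 5000 strongest intervals of each ChIP-nexus library gave 91 intervals at oc, 40 at ems, 81 at btd, 92 at cnc and 55 at croc. With −log10 q of at least 10 there were 172 at oc and 233 at cnc, and with 5 kb windows 55 at ems and 107 at btd. Where another setting moved a value, the cause was not tested. Depth is unknown in these lists, which limits every absence stated here to the authors' threshold.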

Other observations

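Genes with a like pattern were sought over all protein-coding genes at least 100 kb away, by the mean absolute difference of the 6 factor means of log2 rank. The nearest to cnc were sr (0.51), which encodes a zinc finger protein of the Egr family, and lov (0.58). For croc they were the neighbours CG30286 and CG30287 (0.56 each, on the same intervals), with a mean Dl rank of 37.4 and a mean Twi rank of 159. For btd they were Vha16-1 (0.61) and CG33919 (0.80), for ems Btk (0.61) and ND-B17 (0.62), and for oc Cad96Ca and CG13654 (0.68 each, on the same intervals). A site can lie within 10 kb of several genes, so the name of a gene here marks a place and not a target.

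In the btd window, H3K4me1 had its best intervals of the 5 loci in X:9687781-9688079, of rank 154 and fold 6.82 in replicate 1 and of rank 201 and fold 9.63 in replicate 2. Dl was the strongest factor at that site, with a mean rank of 2540, and Cad, Twi and GAF had no summit there. At cnc the best H3K4me1 interval of replicate 1 (rank 576) and of replicate 2 (rank 270) lay over 3R:23214618-23215243, a site that was among the 5000 strongest in all libraries of Bcd, Dl and GAF.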
